A study of Mus musculus with 10 samples.

Results

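Heat shock proteins and their DnaJ partners were followed in the ovaries of young, aged and treated aged mice. Genes of the count table were taken by symbol, as Hspa, Hspb, Hspd, Hspe, Hsph, Dnaja, Dnajb or Dnajc followed by a number alone. Hspa1a, Hspa1b, Hspa1l, Hsp90aa1, Hsp90ab1 and Hsp90b1 were taken as well. Hspa4l, Hspa12a and Hspa12b, with a letter after the number, were left out and read among related genes. This selection gave 67 of 55487 genes, namely 24 heat shock protein genes and 43 DnaJ genes. Of these, 62 had enough reads to be tested among 18956 genes. RNA from whole ovaries of C57BL/6J mice was sequenced in 10 libraries. How many ovaries or mice went into a library is not given in the sources used here, and each library is called an ovary below. The Control group held 4 ovaries of 8-week-old mice, numbered 31 to 34. The Aged group held ovaries 31, 33 and 34 of mice 11 months old by the labels and 10 months old by the methods, and the Aged+CF group held ovaries 30, 32 and 34 of mice of that same age. Mice of the Aged+CF group received 200 µL of CEFFE, a cell-free liquid drawn from fat tissue, at 3 µg/µL, through the tail vein every 2 days for 2 weeks, and the other mice received saline. All 3 groups were given 10 IU of PMSG, a gonadotropin that drives follicle growth, 48 h before collection, so every ovary was a stimulated one. Whole ovaries mix oocytes, granulosa, theca, luteal, stromal, vascular and immune cells, and for every value below fewer cells of a type and less RNA per cell cannot be told apart.

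Molecular chaperones bind unfolded or newly made proteins and help them reach their folded state. HSP70 proteins do so in cycles of ATP binding and hydrolysis, DnaJ proteins (also called HSP40) bring them substrates and start hydrolysis, HSP110 proteins release the nucleotide, and HSP90 finishes the folding of kinases and steroid receptors. Small heat shock proteins hold unfolded proteins without ATP. Separate sets work in the cytosol, in the endoplasmic reticulum (ER) and in mitochondria, and each answers to its own stress signal: heat shock factor 1 (HSF1) acts through heat shock elements in promoters, and the unfolded protein response of the ER acts through ER stress elements. In the ovary, HSP90 and its partners hold steroid receptors, and mitochondria of steroid-making cells import StAR and the other proteins that feed steroid synthesis.

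Library totals ranged from 15761789 to 21318254 counts. The label was checked against oocyte markers, and all 15 of them (among them Zp3 and Gdf9) had reads, with a summed level of 504 to 694 CPM (read counts scaled to library size) in Control, 16.7 to 143 in Aged ovaries and 186 to 302 in treated ones. One Control and one Aged library stood apart: markers of oviduct and cilia, 9 of which were in the table, summed to 30.6, 35.9, 446 and 36.2 CPM in the 4 Control and 23.6, 34.4 and 354 CPM in the 3 Aged ovaries, so that Control 33 and Aged 34 were high, against 28.4 to 53.7 CPM in Aged+CF. Of these lists, the oocyte genes Figla and Mos were at 0 in 1 ovary each, Tekt1 in 2 and the cilia gene Dynlrb2 in 6. Aged 34 also had the lowest oocyte marker sum and the highest immune marker sum (202, 162 and 488 CPM in Aged 31, 33 and 34, over 8 genes). Fold changes without Aged 34 are therefore given for several, not all, of the genes in which it stood apart from the other Aged ovaries. Values per ovary follow the order Control 31, 32, 33 and 34, Aged 31, 33 and 34, and Aged+CF 30, 32 and 34, group means are given with their SD (n = 4, 3 and 3), and log2 fold changes with their SE.

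RefSeq promoters of build GRCm38.p6, 250 bases before to 50 bases after the start, matched 54 of the 67 genes, and Hspa8, Hspa9, Hsp90aa1 and Hsp90ab1 were among the 13 without a match. Motifs were searched in the 250 bases before the start, over every promoter of a gene. A heat shock element was searched as GAANNTTC or TTCNNGAA, each of which reads the same on both strands, and these forms may overlap in a longer run of units. It was found in 14 of the 54 genes (25.9%), against 14.5% of all 27025 genes with a promoter. Holders were Hspa1a, Hspa1b and Hsph1 (3 of 7 cytosolic HSP70 and HSP110 genes), Hspb1, Hspb3 and Hspb6 (3 of 7 small heat shock proteins), the mitochondrial Hspd1 and Hspe1 (2 of 5), Dnaja1, Dnaja4, Dnajb4, Dnajb6 and Dnajc27 (5 of 21 cytosolic DnaJ genes) and the ER gene Dnajc10 (1 of 12). An ER stress element, CCAAT followed after 9 bases by CCACG on either strand, was found in Hspa5, Hsp90b1 and Dnajc3 alone of the 54 genes. All 3 encode ER chaperones or cochaperones (3 of 12 ER genes), while 0.130% of all genes with a promoter held one. A match is a match of letters and not a bound site.

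The upstream sequences of 7 genes are shown 5′ to 3′ on the strand of the gene, because they carry the motifs beside the inducible HSP70 pair, the small heat shock protein Hspb1, the called genes Dnaja4 and Dnajc27, and ER chaperones. Capitals mark the heat shock element in the first 5 and the ER stress element (its CCAAT and CCACG ends, or their reverse complements) in the last pair.
Hspa1a (chr17:34972157-34972406, minus strand): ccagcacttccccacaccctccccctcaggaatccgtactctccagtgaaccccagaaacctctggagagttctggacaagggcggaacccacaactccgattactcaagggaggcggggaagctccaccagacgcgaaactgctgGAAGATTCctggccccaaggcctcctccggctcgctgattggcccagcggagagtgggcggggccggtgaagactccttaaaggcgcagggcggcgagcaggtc
Hspa1b (chr17:34959239-34959488, minus strand): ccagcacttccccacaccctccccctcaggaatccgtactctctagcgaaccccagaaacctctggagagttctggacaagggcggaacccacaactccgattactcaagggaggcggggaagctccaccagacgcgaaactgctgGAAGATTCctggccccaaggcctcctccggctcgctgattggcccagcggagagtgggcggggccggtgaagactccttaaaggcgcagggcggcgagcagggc
Hspb1 (chr5:135887669-135887918, plus strand): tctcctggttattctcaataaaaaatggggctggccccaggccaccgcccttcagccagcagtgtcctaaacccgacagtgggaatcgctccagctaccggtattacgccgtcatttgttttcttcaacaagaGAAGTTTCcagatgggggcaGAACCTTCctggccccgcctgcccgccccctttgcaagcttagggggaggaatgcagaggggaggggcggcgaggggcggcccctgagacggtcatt
Dnaja4 (chr9:54699414-54699513, plus strand, ending 45 bases before the start): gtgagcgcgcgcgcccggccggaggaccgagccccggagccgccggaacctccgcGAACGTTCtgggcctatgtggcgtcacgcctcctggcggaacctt
Dnajc27 (chr12:4082324-4082573, plus strand): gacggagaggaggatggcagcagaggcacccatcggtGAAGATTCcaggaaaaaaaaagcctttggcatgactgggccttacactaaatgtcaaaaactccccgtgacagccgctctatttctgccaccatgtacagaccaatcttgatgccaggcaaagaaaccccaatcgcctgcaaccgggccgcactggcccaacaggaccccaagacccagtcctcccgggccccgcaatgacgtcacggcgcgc
Hsp90b1 (chr10:86705510-86705694, minus strand, ending 65 bases before the start): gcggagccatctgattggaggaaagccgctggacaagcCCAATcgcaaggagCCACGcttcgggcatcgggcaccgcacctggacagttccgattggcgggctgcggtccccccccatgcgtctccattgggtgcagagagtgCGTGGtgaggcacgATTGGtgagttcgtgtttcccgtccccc
Dnajc3 (chr14:118937682-118937931, plus strand): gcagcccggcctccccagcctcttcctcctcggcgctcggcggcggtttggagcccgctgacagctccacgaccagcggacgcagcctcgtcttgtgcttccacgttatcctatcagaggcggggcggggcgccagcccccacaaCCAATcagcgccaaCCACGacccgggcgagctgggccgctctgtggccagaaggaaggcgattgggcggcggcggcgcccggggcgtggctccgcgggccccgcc
The Hspa1a and Hspa1b stretches were the same at 247 of 250 bases. Hspb1 held 2 heat shock elements and Hsp90b1 2 ER stress elements, 1 in each direction. The Dnaja4 promoter also held 2 heat shock elements, of which 1 lies wholly inside the stretch shown. The 3 matches in the promoters of Hspd1 and Hspe1 lay in a shared stretch, since these genes start head to head on chromosome 1, and are not shown because annotated exons cover them.

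Levels were compared between genes as CPM per kb of exons, since a raw CPM grows with the length of a transcript. Hsp90ab1, the constitutive cytosolic HSP90, was far above all others at 624 CPM per kb, averaged over the 3 groups. The mitochondrial chaperonin Hspd1 (178), the ER chaperones Hsp90b1 (167) and Hspa5 (158), the constitutive cytosolic Hspa8 (154) and the cochaperonin Hspe1 (122) followed, then the mitochondrial HSP70 Hspa9 (81.3) and the inducible Hsp90aa1 (66.3). The most abundant DnaJ gene was Dnaja2 at 54.8 CPM per kb and the most abundant small heat shock protein gene was Hspb1 at 42.7. At the other end, Hspb3 had no count in any ovary, and Hspb9, Dnajb7, Dnajb8 and Dnajc22 lay below 0.5 CPM per kb and were not tested. All 67 genes together summed to 7863, 8567, 7945 and 8858 CPM in Control 31 to 34, 8828, 10028 and 8980 CPM in Aged 31, 33 and 34, and 7105, 7479 and 8506 CPM in Aged+CF 30, 32 and 34. The lowest sums of all were those of Aged+CF 30 and 32, and Aged 33 was the highest, while Aged 31 lay below the highest Control ovary. These CPM are TMM-scaled and are not plain shares of a library. The TMM factor was 0.871 in Aged 33 and 0.970 to 1.05 in the other ovaries, and a lower factor raises every CPM of that ovary.

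**Figure D1:**
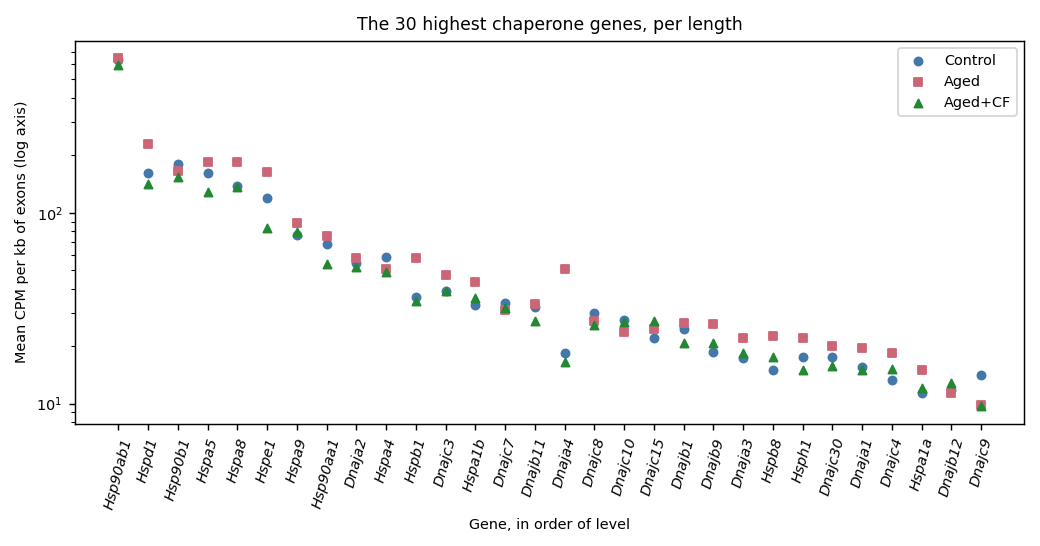
Mean level of the 30 most abundant chaperone genes (x axis, in order of level) as CPM per kb of exons on a log axis, with circles for Control (n = 4), squares for Aged (n = 3) and triangles for Aged+CF (n = 3). Hsp90ab1 stands alone at 624 CPM per kb, and Dnaja4 is the gene whose Aged square lies furthest above its other symbols.

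In Aged compared with Control ovaries, the genes that passed were DnaJ genes. Dnaja4 and Dnajb2 rose and Dnajc27 fell. The call required a 1.5-fold difference and an adjusted p under 0.05 in edgeR's quasi-likelihood test with Benjamini-Hochberg adjustment over all genes, the source of every p below. These were 3 of 62 genes, 2 higher and 1 lower, against 11.1% of all genes tested. None of the 22 heat shock protein genes tested passed, and 4 of them, all higher, had an unadjusted p under 0.05. Dnajb9 and Dnajc4 also passed the adjusted threshold with changes below 1.5-fold, which made 5 genes against 15.4% of all genes. At an unadjusted p under 0.05 with a 1.5-fold difference there were 6 genes, 5 of them higher, against 18.2% of all genes (8.79% higher). At an unadjusted p under 0.05 and any fold there were 18 genes, 14 higher and 4 lower, against 31.6% of all genes (15.7% higher and 15.9% lower), so the total was not above the background. The median log2 fold change of the 62 genes was 0.12 and that of all genes -0.000525, and 40 of the 62 were higher.

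In Aged+CF compared with Aged ovaries, 0 of 62 chaperone genes passed the adjusted threshold in edgeR's test, against 0.00528% of all genes (1 gene). Limma with voom also gave 0, against the same 0.00528%. DESeq2's Wald test gave 2 (Dnaja4 and Hspd1, both lower), against 2.33% of all genes in that test. At an unadjusted p under 0.05, 14 genes were counted and all 14 were lower in Aged+CF, against 16.3% of all genes (8.27% lower and 8.06% higher). With a fold of at least 1.5 added, 5 were counted (Dnaja4, Dnajc6, Hspd1, Hspe1 and Hspb1), against 7.96% of all genes (4.05% lower). The values of the 3 Aged+CF ovaries lay below those of all 3 Aged ovaries for 13 genes and above for 3, against 18.6% of all genes (8.39% below and 10.2% above). The median log2 fold change was -0.15, against -0.02 over all genes, and 47 of 62 were lower. This comparison uses the same Aged ovaries as the one with Control, so that a high Aged value counts in both.

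In Aged+CF compared with Control ovaries, 0 genes passed in edgeR's test, in limma with voom or in DESeq2's Wald test. The shares of all genes that passed were 0.179% in edgeR, 0.111% in limma with voom and 2.79% in DESeq2. At an unadjusted p under 0.05 there were 9 genes, 8 of them lower, against 14.3% of all genes (7.89% lower and 6.41% higher). One of these, Dnajb13, was lower by at least 1.5-fold, against 7.69% of all genes (4.36% lower). The groups did not overlap for 10 genes, 9 of them lower, against 21.9% (12.2% lower and 9.69% higher). The median log2 fold change was -0.06, against -0.03 over all genes.

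**Figure D2:**
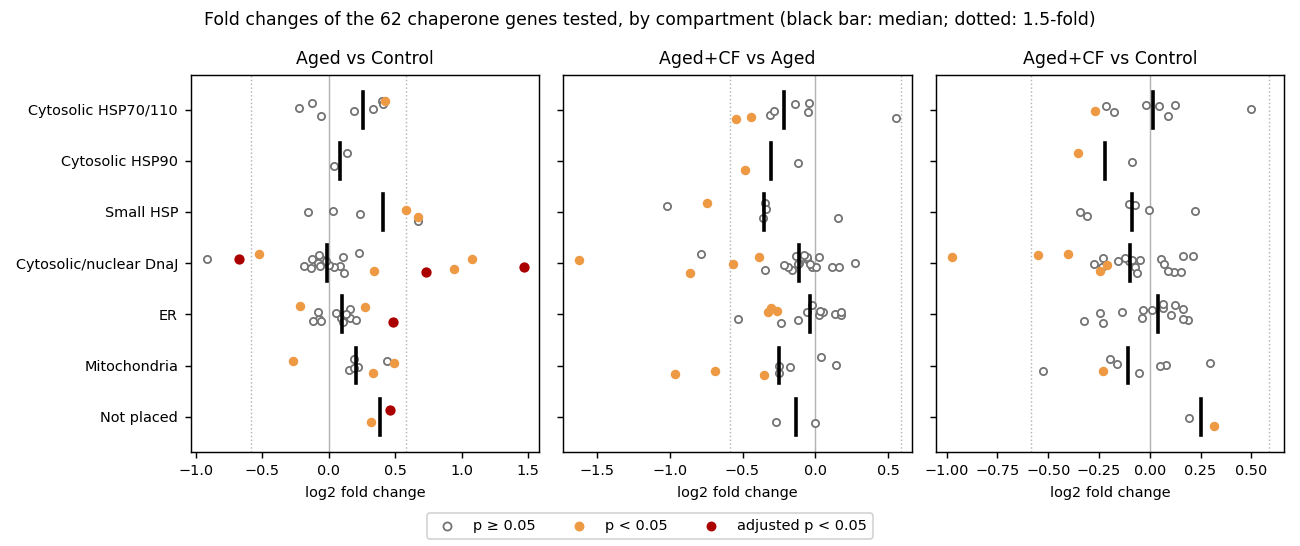
Log2 fold change (x axis) of the 62 chaperone genes tested in the 3 comparisons, by compartment (rows), with black bars for medians, dotted lines at 1.5-fold, open circles for p of 0.05 or more, orange for unadjusted p under 0.05 and red for adjusted p under 0.05. Red points appear in the Aged vs Control panel alone, and in the Aged+CF vs Aged panel every orange point lies left of 0.

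Cytosolic HSP70 and HSP110 genes of the selection, which leaves out Hspa4l, Hspa12a and Hspa12b, were 8. Their median log2 fold changes were 0.26 for Aged vs Control and -0.21 for Aged+CF vs Aged, and none passed the adjusted threshold. Hspa8 encodes the constitutive HSC70, and its level was 581, 603, 549 and 646 CPM in the 4 Control ovaries, 695, 796 and 904 CPM in Aged 31, 33 and 34 and 497, 579 and 686 CPM in Aged+CF 30, 32 and 34. All 3 Aged ovaries lay above every Control and every Aged+CF ovary. For Hspa8, Aged differed from Control by a log2 fold change of 0.42 ± 0.14 (SE, adjusted p = 0.0605) and Aged+CF from Aged by -0.44 ± 0.15 (adjusted p = 0.211). Of the 50-base words of the Hspa8 exons, 51.4% also occur in other genes, so that its counts depend on how shared reads were placed.

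The stress-inducible pair Hspa1a and Hspa1b gave a different picture. Hspa1b stood at 85.0, 131, 68.0 and 84.1 CPM in Control, 84.8, 96.9 and 185 CPM in Aged and 52.3, 134 and 115 CPM in Aged+CF. Control 32, Aged 34 and Aged+CF 32 and 34 were high and Aged+CF 30 was the lowest, so the groups overlapped. Hspa1a ran alongside at 30.6, 49.7, 23.9 and 30.96 CPM, 31.97, 36.8 and 65.2 CPM and 17.1, 48.5 and 42.2 CPM. In Aged vs Control the log2 fold change of Hspa1b was 0.41 ± 0.36 (adjusted p = 0.482) and that of Hspa1a 0.40 ± 0.38 (adjusted p = 0.51), and without Aged 34 they were 0.02 (adjusted p = 0.973) and 0.06 (adjusted p = 0.921). Hspa1b differed by -0.28 ± 0.39 in Aged+CF vs Aged and Hspa1a by -0.31 ± 0.41, and without Aged 34 both turned, to 0.13 and 0.05. The ratio of Hspa1b to Hspa1a counts kept between 2.64 and 3.06 in all 10 ovaries. Some 58.8% of the 50-base words of Hspa1a are found in Hspa1b, so the pair cannot be separated with certainty. Immediate early genes, which respond to stimulation within minutes, were summed as well, over 10 genes, and gave 574, 1964, 413 and 350.2 CPM in the Control ovaries, 597, 594 and 621 CPM in the Aged ovaries and 875, 669 and 658 CPM in the Aged+CF ovaries. Control 32, the Control ovary with the most Hspa1a and Hspa1b, was the highest of all 10, whereas Aged 34 lay close to Aged 31 and 33. Their part in the Hspa1a and Hspa1b levels was not tested.

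Hsph1, an HSP110 that exchanges the nucleotide of HSP70, was measured at 124, 129, 110.4 and 146 CPM in Control, 128, 168 and 184 CPM in Aged and 79.1, 111 and 138 CPM in Aged+CF. Its 2 higher Aged ovaries lay above all others, and Aged 31 lay within the Control range. The log2 fold change was -0.55 ± 0.20 in Aged+CF vs Aged (adjusted p = 0.242). Hspa4, another HSP110, was at 326 ± 22.9 CPM (SD, n = 4) in Control, 279 ± 31.9 in Aged ovaries and 271 ± 29.8 in Aged+CF (SD, n = 3), with a log2 fold change of -0.27 ± 0.11 for Aged+CF vs Control (adjusted p = 0.327). Hspa2, best known from male germ cells, was at 26.5 ± 4.67 CPM in Control, 30.2 ± 8.44 in Aged ovaries and 27.3 ± 2.92 in treated ones (SD), with 25.4, 25.2 and 39.9 CPM in Aged 31, 33 and 34. Without Aged 34 its log2 fold change in Aged vs Control turned from 0.19 to -0.03. Hspa14, a ribosome-bound HSP70, lay between 34.2 and 42.4 CPM in all ovaries, and Hspa1l, next to Hspa1a and Hspa1b in the genome, below 6 CPM.

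Of the cytosolic HSP90 genes, Hsp90ab1 did not separate the groups, with 1890 ± 185 CPM in Control ovaries, 1940 ± 163 in Aged ovaries and 1782 ± 200.0 in treated ones (SD). Hsp90aa1, its stress-inducible paralog, measured 204, 318, 252 and 311 CPM in Control, 297, 286 and 310.1 CPM in Aged and 206, 228 and 204 CPM in Aged+CF. The 3 Aged+CF ovaries lay below all 3 Aged ovaries and near the lowest Control ovary, whereas Aged and Control overlapped. For Hsp90aa1, Aged differed from Control by a log2 fold change of 0.13 ± 0.15 (adjusted p = 0.572), Aged+CF from Aged by -0.49 ± 0.16 (adjusted p = 0.204) and Aged+CF from Control by -0.35 ± 0.15 (adjusted p = 0.321). Of its 50-base words, 58.5% also occur in other genes.

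Small heat shock proteins, taken by the Hspb symbol, had the highest compartment median in Aged vs Control, 0.41 over 6 genes tested. Theirs was the lowest in Aged+CF vs Aged, -0.35, yet none of the 6 passed the adjusted threshold. Hspb11 was placed here by its symbol alone, and Cryab, a small heat shock protein with another symbol, was read among the related genes. Hspb1 (HSP25 in the mouse, chr5:135887919-135889563, GRCm38), a holdase that also guards actin filaments, stood at 28.5, 35.7, 40.5 and 44.5 CPM in Control, 39.0, 55.2 and 84.1 CPM in Aged and 37.2, 34.1 and 35.1 CPM in Aged+CF. Aged 34 was the highest of the 10 ovaries, Aged 31 lay among the Control ovaries, and all 3 Aged+CF ovaries lay in a narrow band under every Aged ovary. For Hspb1, Aged differed from Control by a log2 fold change of 0.67 ± 0.23 (SE, adjusted p = 0.0772) and Aged+CF from Aged by -0.75 ± 0.25 (adjusted p = 0.216). Without Aged 31 the Aged vs Control difference of Hspb1 passed (0.93, adjusted p = 0.023), and without Aged 34 it was 0.37 (adjusted p = 0.175). The Aged+CF vs Aged difference of Hspb1 was -0.42 without Aged 34 (adjusted p = 0.22). The pseudogene Hsp25-ps1 shares 51.6% of the 50-base words of Hspb1.

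Hspb8, which works with BAG3 to send unfolded proteins to autophagy, showed the same order of the Aged ovaries as Hspb1 at 30.1, 41.3 and 60.9 CPM in Aged 31, 33 and 34, against 22.002, 34.1, 29.7 and 31.9 CPM in Control and 36.8, 35.3 and 30.9 CPM in Aged+CF, and Aged differed from Control by 0.58 ± 0.22 (adjusted p = 0.105). Without Aged 34 the difference of Hspb8 was 0.32 (adjusted p = 0.251). Hspb7, a muscle-rich gene, was at 2.33, 2.26 and 23.0 CPM in Aged 31, 33 and 34 and between 3.27 and 8.01 CPM in the 7 other ovaries. Aged 34 was thus the single high ovary for Hspb7, and Aged differed from Control by 0.67 ± 0.74 with it (adjusted p = 0.58) and by -1.30 without it (adjusted p = 0.0599). The difference of Hspb7 in Aged+CF vs Aged likewise turned, from -1.02 ± 0.81 to 0.98 (adjusted p = 0.221). Smooth muscle markers summed over 6 genes to 1046, 1321 and 2596 CPM in Aged 31, 33 and 34, against 1610 to 2012 in Control and 999.97 to 1554 in Aged+CF. The part of muscle cells in the small heat shock protein values was not tested. Hspb6, Hspb2 and Hspb11 had log2 fold changes of -0.16, 0.04 and 0.24 in Aged vs Control, and of 0.15, -0.35 and -0.34 in Aged+CF vs Aged.

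**Figure D3:**
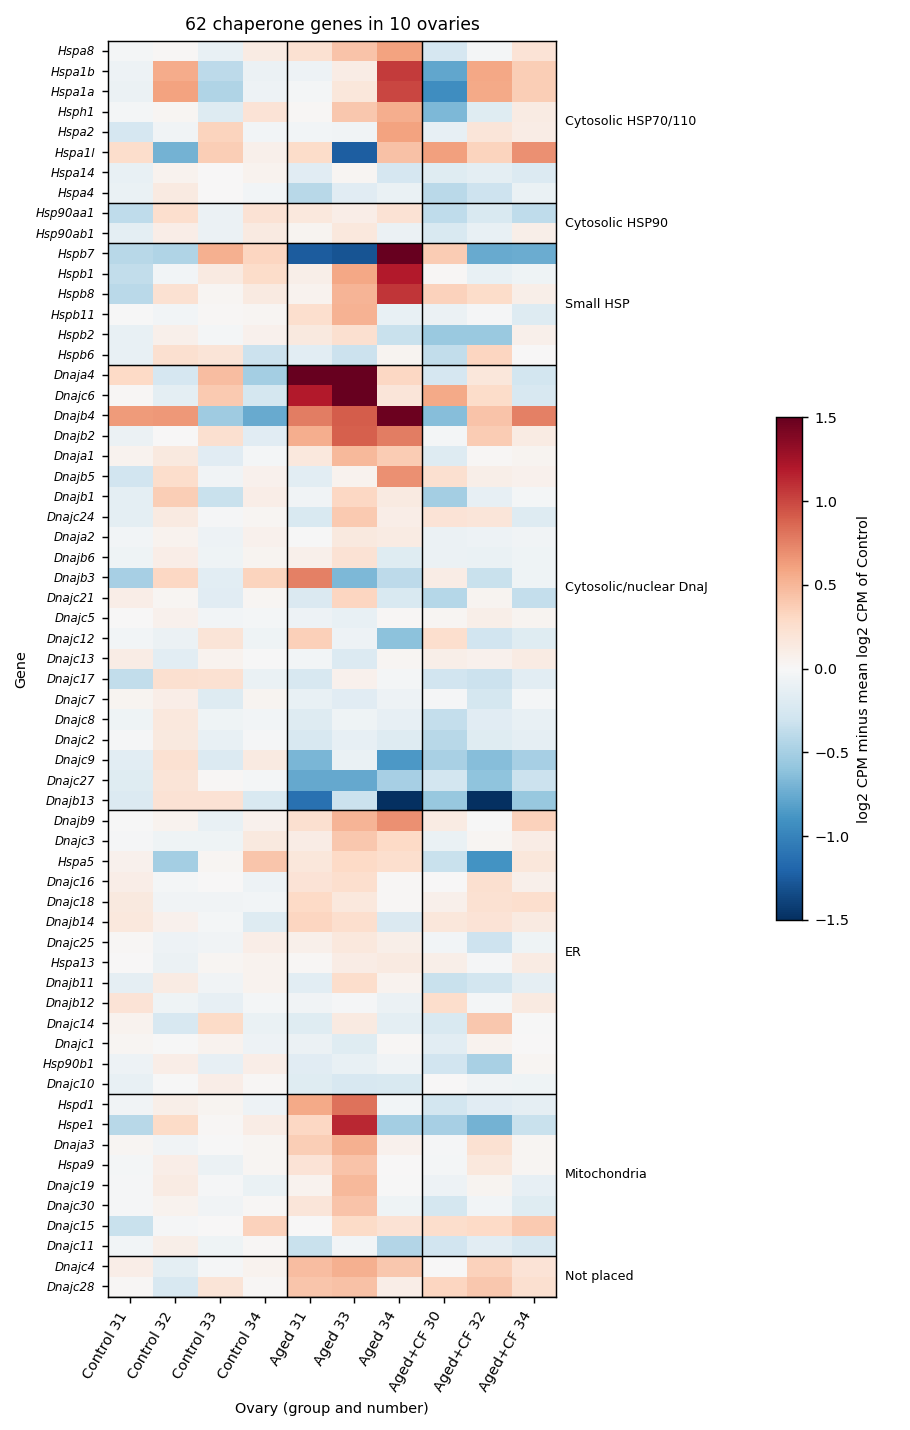
Log2 CPM minus the mean log2 CPM of the Control ovaries (colour, limited to -1.5 and 1.5) for the 62 chaperone genes tested (rows, by compartment) in the 10 ovaries (columns). Aged 34 is red for Hspa1a, Hspa1b, Hspb1, Hspb7 and Hspb8, Aged 31 and Aged 33 for Dnaja4, Dnajc6, Hspd1 and Hspe1, and Hspb7 in Aged 34 and Dnaja4 in both Aged 31 and 33 reach the end of the colour range.

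Cytosolic and nuclear DnaJ genes gave all 3 calls, although their median log2 fold change in Aged vs Control was -0.01 over 22 genes, 10 of them higher. Dnaja4 (ENSMUSG00000032285, chr9:54698873-54716315) encodes a J-protein that turns the HSP70 cycle and is known to respond to cellular cholesterol demand. Its level was 78.7, 53.6, 87.8 and 45.0 CPM in Control 31 to 34, 197, 274 and 79.3 CPM in Aged 31, 33 and 34 and 53.5, 72.0 and 53.0 CPM in Aged+CF 30, 32 and 34. Aged 31 and Aged 33 were more than double the highest Control ovary, but Aged 34 lay inside the Control range. The log2 fold change in Aged vs Control was 1.47 ± 0.37 (adjusted p = 0.027).

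All 3 Aged+CF ovaries of Dnaja4 lay below the lowest Aged ovary, with a log2 fold change of -1.62 ± 0.40 against Aged (adjusted p = 0.161). Without Aged 34 both differences were larger, 1.86 (adjusted p = 0.00292) and -1.997 (adjusted p = 0.0179). The call in Aged vs Control was lost without Aged 31 (adjusted p = 0.0644), Aged 33 (0.0892), Control 32 (0.0768) or Control 34 (0.0728), and when Aged and Control were fitted without the Aged+CF ovaries (0.0598).

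Dnajb2 (ENSMUSG00000026203, chr1:75236406-75245692) encodes a J-protein that hands ubiquitinated clients to the proteasome. It stood at 32.7, 34.98, 41.2 and 31.01 CPM in Control, 50.7, 64.5 and 59.0 CPM in Aged and 34.1, 45.3 and 38.0 CPM in Aged+CF. All 3 Aged ovaries lay above every other ovary, while Aged+CF and Control overlapped. Dnajb2 rose by a log2 fold change of 0.73 ± 0.14 in Aged vs Control (adjusted p = 0.0109), and its call held with each Control or Aged ovary left out in turn. In Aged+CF vs Aged it differed by -0.57 ± 0.15 (adjusted p = 0.169).

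Dnajc27 (ENSMUSG00000020657, chr12:4082583-4110606), a RAB-like GTPase with a J domain, was the called gene that fell. Its level was 19.3, 25.1, 22.2 and 21.6 CPM in Control, 12.9, 12.8 and 15.5 CPM in Aged and 18.1, 14.5 and 17.5 CPM in Aged+CF. Every Aged ovary lay below every Control ovary, and so did every Aged+CF ovary, with 1 Aged+CF ovary inside the Aged range. For Dnajc27, Aged differed from Control by a log2 fold change of -0.68 ± 0.14 (SE, adjusted p = 0.014), a call kept with each Control or Aged ovary left out, while Aged+CF differed from Control by -0.40 ± 0.14 (adjusted p = 0.24) and Aged+CF from Aged by 0.27 ± 0.15 (adjusted p = 0.377).

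Dnaja1, a farnesylated J-protein of the cytosol, followed the order of Dnajb2 on a smaller scale at 138, 147, 119 and 131 CPM in Control, 149, 187 and 173 CPM in Aged and 116, 135 and 138 CPM in Aged+CF. The Aged ovaries lay above all others, and Aged differed from Control by 0.34 ± 0.11 (adjusted p = 0.0638) and Aged+CF from Aged by -0.39 ± 0.12 (adjusted p = 0.194). Dnajb1, the classical heat-inducible HSP40, did not separate the groups, with 78.4 ± 16.8 CPM in Control ovaries, 84.8 ± 10.5 in Aged ovaries and 66.8 ± 11.2 in treated ones (SD). Dnajc6 (auxilin), which uncoats clathrin vesicles, had 9.72, 12.9 and 4.85 CPM in Aged 31, 33 and 34, against 4.32, 3.87, 5.58 and 3.55 CPM in Control and 6.31, 5.17 and 3.61 CPM in Aged+CF (log2 fold change 1.08 ± 0.33 in Aged vs Control, adjusted p = 0.0519). Aged 31 and 33 were again the high pair, as for Dnaja4, and without Aged 34 the Aged vs Control difference of Dnajc6 was 1.42 (adjusted p = 0.00672).

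Among DnaJ genes that were lower in Aged+CF than in Control, Dnajc9, a histone chaperone of replicating cells, was at 29.9, 39.3, 29.2 and 36.7 CPM in Control, 20.8, 31.3 and 18.4 CPM in Aged and 23.9, 21.5 and 23.8 CPM in Aged+CF. The Aged+CF ovaries lay below every Control ovary, and Aged 33 was the single Aged ovary inside the Control range. For Dnajc9, Aged differed from Control by -0.52 ± 0.19 (adjusted p = 0.0855) and Aged+CF from Control by -0.55 ± 0.19 (adjusted p = 0.239). Dnajc2, which binds ribosomes, differed by -0.24 and Dnajc8, a splicing-associated J-protein, by -0.21 in Aged+CF vs Control, with adjusted p of 0.32 and 0.339. Dnajb13, a part of sperm tails and motile cilia, was at 9.40, 12.7, 12.6 and 9.28 CPM in Control, 5.01, 8.68 and 3.80 CPM in Aged and 7.34, 2.07 and 7.31 CPM in Aged+CF. Control was above both other groups with no overlap (-0.98 ± 0.42 in Aged+CF vs Control, adjusted p = 0.333), and Aged 34, where the cilia gene Foxj1 was high, had the least Dnajb13 of the Aged ovaries (Foxj1 at 0.934, 0.436, 36.7 and 1.91 CPM in Control and 0.119, 0.141 and 32.3 CPM in Aged). The part of ciliated cells in the Dnajb13 values was not tested. In every comparison the other cytosolic DnaJ genes, Dnaja2, Dnajb3, Dnajb5, Dnajb6, Dnajc5, Dnajc7, Dnajc12, Dnajc13, Dnajc17, Dnajc21 and Dnajc24, had adjusted p above the threshold, and the one farthest from 0 was Dnajc17 at -0.27 in Aged+CF vs Control. Dnajb4, close to Dnajb1 in function, was at 57.2, 57.8, 25.4 and 21.7 CPM in Control, 62.6, 69.0 and 101 CPM in Aged and 23.7, 49.5 and 61.97 CPM in Aged+CF. All 3 Aged ovaries lay above every other ovary, while the Control ovaries formed a high and a low pair. For Dnajb4, Aged differed from Control by 0.94 ± 0.41 (adjusted p = 0.148), or by 0.74 without Aged 34 (adjusted p = 0.267), and Aged+CF from Aged by -0.79 ± 0.44 (adjusted p = 0.401).

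**Figure D4:**
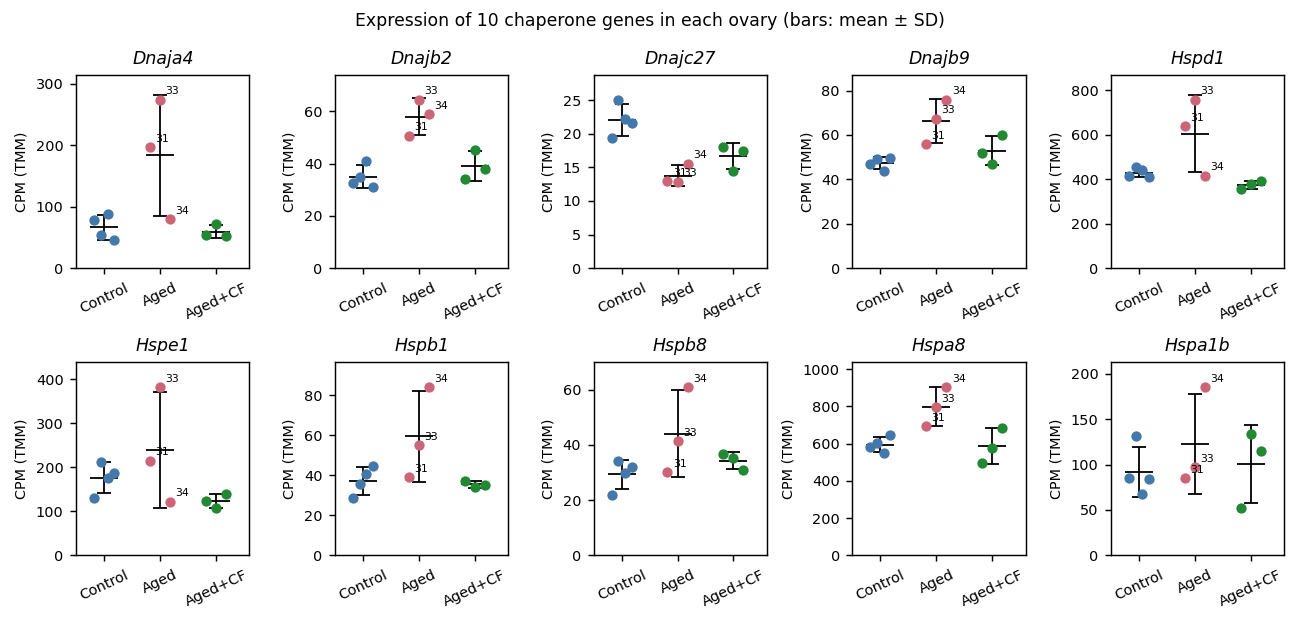
CPM of 10 chaperone genes (panels) in each ovary of Control (blue, n = 4), Aged (red, n = 3, numbered) and Aged+CF (green, n = 3), with bars for the mean ± SD and axes from 0. Dnajb2 and Hspa8 are high in all 3 Aged ovaries, Dnaja4 and Hspd1 in Aged 31 and 33, Hspe1 in Aged 33, and Hspb1, Hspb8 and Hspa1b in Aged 34.

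Chaperones of the ER had median log2 fold changes of 0.10 for Aged vs Control and of -0.04 for Aged+CF vs Aged over 14 genes. Dnajb9 (ERdj4), which helps BiP keep the stress sensor IRE1 inactive, was the ER gene that passed the adjusted threshold. Its level was 47.0, 49.1, 43.97 and 49.5 CPM in Control, 55.8, 67.4 and 75.9 CPM in Aged and 51.7, 47.1 and 60.1 CPM in Aged+CF. Every Aged ovary lay above every Control ovary, and Aged+CF reached into the Aged range with 1 ovary. For Dnajb9, Aged differed from Control by a log2 fold change of 0.49 ± 0.12 (SE, adjusted p = 0.027), below 1.5-fold, and Aged+CF from Aged by -0.32 ± 0.13 (adjusted p = 0.269). With any 1 Control ovary left out the adjusted p of the first lay between 0.0586 and 0.0665, and without the filter on low counts it was 0.0506.

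The 3 genes with an ER stress element did not share 1 order of ovaries. Hspa5 (BiP), the HSP70 of the ER, stood at 694, 466, 675 and 888 CPM in Control, 749, 818 and 789.8 CPM in Aged and 526, 355 and 748 CPM in Aged+CF. Control and Aged+CF ovaries were widely scattered and Aged ovaries were not, and Aged differed from Control by 0.21 ± 0.25 (adjusted p = 0.628) and Aged+CF from Aged by -0.53 ± 0.27 (adjusted p = 0.361). Hsp90b1 (GRP94), the HSP90 of the ER, was at 727 ± 57.3 CPM in Control ovaries, 671 ± 27.6 in Aged ovaries and 619 ± 114 in treated ones (SD), so the groups overlapped. Dnajc3 (p58IPK), a BiP cochaperone that also curbs PERK, was at 197, 189.9, 190.2 and 220.4 CPM in Control, 215, 264 and 246 CPM in Aged and 186, 203 and 214 CPM in Aged+CF, with all Aged+CF below all Aged ovaries (-0.26 ± 0.11, adjusted p = 0.27). Dnajb11 (ERdj3), another BiP cochaperone, differed by -0.31 ± 0.12 in Aged+CF vs Aged (adjusted p = 0.263), and Dnajc10 (ERdj5), a disulfide reductase, was at 138 ± 8.18 CPM in Control, 119 ± 2.06 in Aged ovaries and 134 ± 3.497 in treated ones (SD, adjusted p = 0.0777 in Aged vs Control). The 8 remaining ER genes, Hspa13, Dnajb12, Dnajb14, Dnajc1, Dnajc14, Dnajc16, Dnajc18 and Dnajc25, had adjusted p above the threshold in each comparison, and the one farthest from 0 was Dnajc25 at -0.24 in Aged+CF vs Aged.

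Mitochondrial chaperones had a median log2 fold change of 0.21 in Aged vs Control, 7 of 8 genes higher, and -0.25 in Aged+CF vs Aged, 6 of 8 lower, with no gene past the adjusted threshold. Hspd1 (HSP60, chr1:55077835-55088243) and Hspe1 (HSP10, chr1:55088132-55091307) form the barrel and lid of the chaperonin of the matrix. Hspd1 was at 415, 455, 440.1 and 408 CPM in Control, 638, 757 and 415 CPM in Aged and 355, 379.8 and 389.6 CPM in Aged+CF. Aged 31 and 33 were far above every Control ovary, Aged 34 lay inside the Control range, and all Aged+CF ovaries lay below all others. For Hspd1, Aged differed from Control by a log2 fold change of 0.49 ± 0.17 (SE, adjusted p = 0.0786) and Aged+CF from Aged by -0.69 ± 0.18 (adjusted p = 0.17).

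Hspe1 followed the same ovaries at 131, 213, 176 and 188 CPM in Control, 215, 382 and 122 CPM in Aged and 124, 107 and 138 CPM in Aged+CF. Aged 33 was the highest and Aged 34 lower than all Control ovaries, and for Hspe1 Aged differed from Control by 0.44 ± 0.32 (adjusted p = 0.377), with a log2 fold change of -0.96 ± 0.34 in Aged+CF vs Aged (adjusted p = 0.226). Without Aged 34, Hspd1 passed in both comparisons (0.74, adjusted p = 0.00288, and -0.91, adjusted p = 0.0115), and so did Hspe1 (0.80, adjusted p = 0.0373, and -1.30, adjusted p = 0.0341). Without Aged 33, Hspe1 differed by -0.03 in Aged vs Control. Hspd1 and Hspe1 overlap on opposite strands at their starts, 44.8% of the 50-base words of Hspd1 also occur in other genes, and the strand setting of the counting is not given in the sources used here. Other chaperone genes share exon bases with a neighbour as well. Among them, Dnaja4 overlaps Wdr61, Dnajb13 overlaps Ucp2 and Dnaja3 overlaps Coro7 on the opposite strand, and Dnaja3 overlaps Vasn on the same strand.

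Hspa9 (mortalin), the HSP70 of the matrix and motor of protein import, was at 320.2, 350.4, 307 and 334 CPM in Control, 379, 439 and 330.3 CPM in Aged and 320.3, 366 and 333 CPM in Aged+CF, with Aged 33 highest (log2 fold change 0.22 ± 0.11 in Aged vs Control, adjusted p = 0.201). Its partner Dnaja3 (TID1) showed 87.8, 98.7 and 71.6 CPM in Aged 31, 33 and 34, all above the 69.6, 66.0, 67.8 and 69.4 CPM of the Control ovaries (0.33 ± 0.11, adjusted p = 0.0706). Dnajc30 differed by -0.35 ± 0.13 in Aged+CF vs Aged (adjusted p = 0.24), Dnajc11, of the inner membrane contact sites, by -0.27 ± 0.10 in Aged vs Control (adjusted p = 0.109), and the import proteins Dnajc15 and Dnajc19 differed by 0.15 and 0.19 in Aged vs Control. Summed over the 8 genes, mitochondrial chaperones took 1180, 1368, 1263 and 1315 CPM in Control, 1585, 2000 and 1215 CPM in Aged and 1150, 1232 and 1233 CPM in Aged+CF.

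Of the genes placed in no compartment, Dnajc4 was at 17.7, 14.8, 16.3 and 17.1 CPM in Control, 22.6, 23.8 and 21.7 CPM in Aged and 16.6, 20.8 and 19.03 CPM in Aged+CF. The 3 Aged ovaries were close together and above all others, with a log2 fold change of 0.46 ± 0.12 (adjusted p = 0.0277). Its adjusted p stayed below the threshold without Control 31 (0.0437) or Aged 34 (0.0206) and was between 0.0517 and 0.074 without any other of these ovaries, and was 0.0603 without the filter on low counts. Dnajc28 was higher than in Control by 0.32 ± 0.14 in Aged and by 0.31 ± 0.14 in Aged+CF, with adjusted p of 0.151 and 0.341.

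The 3 Aged ovaries did not carry 1 common pattern. Of the 62 genes, 39 had the highest of their 10 values in an Aged ovary (62.9%, against 45.7% of all genes), namely 23 in Aged 33, 12 in Aged 34 and 4 in Aged 31. Aged 33 had the lowest TMM factor of the 10 ovaries (0.871), which raises all its CPM values. The median coefficient of variation of these genes was 13.3% in Aged, 8.80% in Control and 9.63% in Aged+CF, against 22.7%, 13.3% and 12.9% over all genes, so both the chaperone genes and the whole table varied most among the Aged ovaries. Aged 31 and 33 were high for Dnaja4, Dnajc6 and Hspd1. For Hspe1, Aged 33 was high and Aged 31 (215 CPM) lay just above the highest Control ovary (213 CPM). In the same ovaries, theca and luteal markers (8 genes) summed to 25667, 35575 and 15467 CPM in Aged 31, 33 and 34, against 6381 to 11533 in Control and 13701 to 21418 in Aged+CF, where the sum was mostly Cyp11a1, Hsd3b1 and Star. These markers did not all follow the sum: the steroid hydroxylase Cyp17a1 was at 16.9, 146 and 504 CPM, highest in Aged 34, and the LH receptor Lhcgr at 1967, 1861 and 1789 CPM, about level, whereas the cholesterol importer Star read 4434, 6510 and 1157 CPM. Aged 34 was high for Hspb7, Hspa1a, Hspa1b, Hspb1 and Hspb8, and there the oviduct, immune and smooth muscle sums given above were the highest of the 3 (8 immune and 6 smooth muscle genes, none without reads). The part of these cell types in the chaperone values was not tested. Dnajb2, Dnajb4, Dnajb9, Dnajc4, Dnaja1, Dnaja3 and Hspa8 were higher in all 3 Aged than in all 4 Control ovaries. Dnajb13, Dnajc2, Dnajc8, Dnajc10 and Dnajc27 were lower in all 3. These were 12 of the 62 genes, 7 higher and 5 lower, against 27.5% of all genes (11.8% higher and 15.6% lower).

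**Figure D5:**
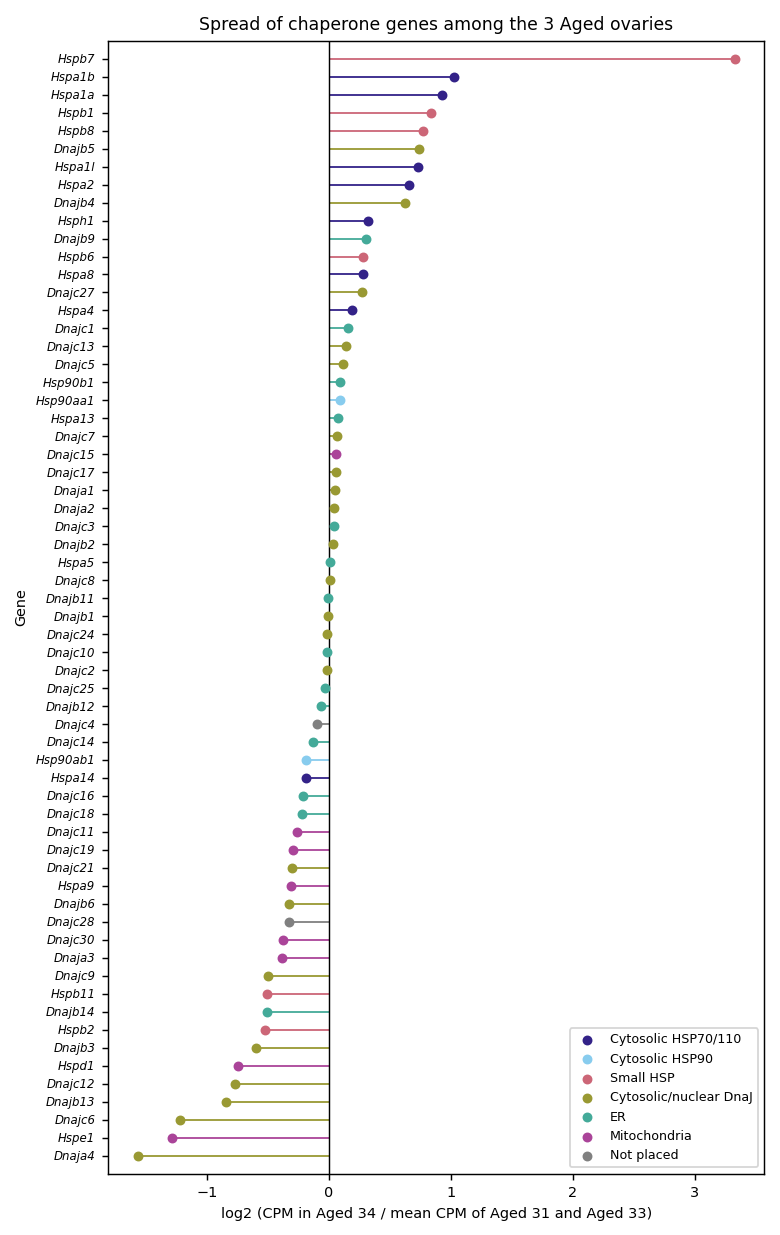
Log2 ratio of the CPM in Aged 34 to the mean CPM of Aged 31 and Aged 33 (x axis) for the 62 chaperone genes tested (y axis, in order of the ratio), coloured by compartment. Hspb7, Hspa1b and Hspa1a lie furthest right and Dnaja4, Hspe1 and Dnajc6 furthest left, while Dnajb2 and Hspa5 lie near 0.

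Which genes passed depended on the Aged ovaries included. Without Aged 34, 6 chaperone genes passed in Aged vs Control (Dnaja4, Dnajb2, Dnajc27, Dnajc6, Hspd1 and Hspe1, against 16.1% of all genes) and 3 in Aged+CF vs Aged (Dnaja4, Hspd1 and Hspe1, all lower, against 2.87%). Without Aged 31, 5 passed in Aged vs Control (Dnajb2, Dnajb9, Dnajc27, Hspb1 and Hspb8, against 8.92%), and without Aged 33, 3 did (Dnajb2, Dnajc27 and Dnajc9, against 9.09%). In Aged+CF vs Aged 0 passed without Aged 31 or Aged 33 (0.0511% and 0.0306% of all genes). At an unadjusted p and a fold of 1.5 the count went from 5 (7.96% of all genes) to 2 (7.89%) without Aged 33. Dnajb2 and Dnajc27 were called in each of these settings.

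Partners of the chaperones were read from lists of related genes. The 26 genes of the first list were mostly heat shock factors and cochaperones of the cytosol. This list also held the chaperones Serpinh1, of the ER, Cryab and Hspa4l, and the HSP70 relatives Hspa12a and Hspa12b. Of the 26, 18 had a higher mean in Aged than in Control ovaries, and 1 passed at an adjusted p at any fold, against 15.4% of all genes. This was Bag1, a nucleotide exchange factor of HSP70, at 180.0, 176, 165 and 168 CPM in Control, 217, 268 and 189 CPM in Aged and 154, 171 and 171 CPM in Aged+CF (0.39 ± 0.12, adjusted p = 0.0484). The adjusted p of Bag1 was 0.00834 without Aged 34 and above the threshold without any other ovary. In Aged+CF vs Aged, 20 of the 26 were lower. An unadjusted p under 0.05 was found for 8, all 8 lower and Cryab and Hspa4l among them, against 16.3% of all genes (8.27% lower). The smallest p belonged to Ptges3 (p23, the cochaperone that closes HSP90), at 89.9, 102, 81.2 and 101 CPM in Control, 97.3, 110.5 and 105 CPM in Aged and 66.8, 75.9 and 82.0 CPM in Aged+CF (-0.48 ± 0.12, adjusted p = 0.161). The 3 Aged+CF ovaries lay below all Aged ovaries for Ptges3 and 1 of them inside the Control range. Hsf1, the master regulator of the heat shock response, was at 34.7 ± 5.13 CPM in Control, 42.3 ± 7.46 in Aged ovaries and 36.8 ± 4.199 in treated ones (SD), and Hsf2 at 31.7 ± 1.51, 26.3 ± 3.04 and 28.4 ± 2.99 CPM in the same order, with adjusted p in Aged vs Control of 0.232 and 0.137.

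Of 21 genes of ER folding and the unfolded protein response, 16 had a higher mean in Aged than in Control ovaries, and 1 passed, again against 15.4% of all genes. Edem1, which extracts misfolded glycoproteins for degradation, was at 107, 93.3, 102 and 102 CPM in Control, 147, 219 and 135 CPM in Aged and 122, 149 and 137 CPM in Aged+CF (0.72 ± 0.16, adjusted p = 0.0163), and every Aged and Aged+CF ovary lay above every Control ovary. In Aged+CF vs Aged 17 of the 21 were lower and none passed, against 0.00528% of all genes. Sdf2l1 had the smallest p (-0.63 ± 0.21, adjusted p = 0.209), and the disulfide isomerase Pdia4 went the other way at 369.8, 347 and 331 CPM in Aged and 362, 750.1 and 599.6 CPM in Aged+CF (0.71 ± 0.25, adjusted p = 0.22), with Aged+CF 30 inside the Aged range, and in Aged+CF vs Control the sensor Atf6 had the smallest p (0.38 ± 0.09, adjusted p = 0.128). Of 11 genes of mitochondrial import and proteostasis 1 passed in Aged vs Control, against the same 15.4%: the matrix protease Lonp1 was at 246, 253, 255 and 226 CPM in Control, 389.7, 465 and 264 CPM in Aged and 267, 331 and 267 CPM in Aged+CF (0.61 ± 0.17, adjusted p = 0.04), with Aged 31 and 33 as the high ovaries. Its adjusted p was 0.00321 without Aged 34 and above the threshold without any other ovary. The smallest p of that list was Pam16 in Aged+CF vs Aged (-0.32, adjusted p = 0.338) and Hscb in Aged+CF vs Control (-0.38, adjusted p = 0.401). The 8 subunits of TRiC, the chaperonin of the cytosol, had a different sign from the mitochondrial one: all 8 had lower means in Aged than in Control, with a median log2 fold change of -0.14, and none had an unadjusted p under 0.05 in any comparison. Cct6a was the subunit with the smallest p in Aged vs Control (-0.27 ± 0.14, adjusted p = 0.2), Tcp1 in Aged+CF vs Aged (-0.15, adjusted p = 0.549) and Cct3 in Aged+CF vs Control (-0.26, adjusted p = 0.372).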

How the data were processed

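Groups were read from the sample labels, and same-numbered ovaries of different groups came from different animals. The submitters' processing notes name TopHat, Cufflinks 2.1.1 and build GRCm38.p4. The values tested were raw whole-number read counts of each gene, as deposited. The counting tool, annotation and strand setting are not given in the sources used here. The authors also deposited FPKM values, which were not tested. The length behind these FPKM values exceeded 1.1 times the exon union (GENCODE M21) in 51 of 66 chaperone genes, so levels between genes were given as CPM per kb of exon union.

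Counts were fitted with edgeR 4.0 (R 4.3) over all 10 ovaries, with filterByExpr, TMM scaling and a mean per group, and tested by the quasi-likelihood F test, two-sided, with Benjamini-Hochberg adjustment over 18956 genes. Calls required a fold change of at least 1.5 and an adjusted p under 0.05. CPM values are TMM-scaled. No model was fitted to a list, which was described by counts and medians. No batch is given. The methods call the samples biological replicates. Tested on simulated counts of 18640 genes, the Aged vs Control test recovered 6, 24, 37 and 42 of 50 genes changed by 1.5, 2, 3 and 4-fold, and the Aged+CF vs Aged test 3, 18, 34 and 40 of 50. A true change of 1.5-fold lies at the fold threshold itself. The simulated counts gave each gene the same spread in all groups, and changed genes were drawn from those above a minimum count. The real Aged ovaries varied more than the Control ovaries, so recovery in the real comparisons may differ.

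The genes, the compartments and the related lists were chosen with earlier results of these data known. Named genes were those with an adjusted p under 0.05, at least the 8 of smallest p per comparison, a core set of 20 chaperones, the gene of smallest p in each related list, and Hsf1 and Hsf2. The other genes named with values (Dnajb4, Hspb7, Dnaja3, Dnajc30, Dnajc11, Dnajb11, Dnajc10, Pdia4, Star, Cyp17a1, Lhcgr, Foxj1 and the genes that complete a compartment) were added after their values were seen. Alternatives were no filter, DESeq2 1.42 size factors or Wald test, limma 3.58 with voom, fits of the compared groups alone, a replicate block and each ovary left out.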

Additional observations from a re-analysis of the deposited data

Results flagged for a closer look

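One value of a named gene stood apart within its group. Dnajc8 was at 84.7 CPM in Control 32, and the gap to the nearest Control ovary was 0.888 of the range of the 4 Control ovaries, above Dixon's critical value for a group of this size. The other Control ovaries were at 72.7, 72.8 and 74.1 CPM. Of 42 named genes checked in Control it was the only one, and chance alone marks about 1 group in 20. The groups of 3 were not checked in this way.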

How the results depend on the processing

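The count of chaperone genes called in Aged vs Control (3) was 5 with DESeq2's Wald test (14.6% of all genes), 4 with DESeq2 size factors (11.3%), 2 with the compared groups alone (7.78%), 6 at an unadjusted p with a fold of 1.5 (18.2%) and 5 at an adjusted p at any fold (15.4%), and ranged from 2 to 6 with 1 ovary left out (5.74% to 16.1%). In Aged+CF vs Aged the count of 0 became 2 with the Wald test (2.33%) and 5 at an unadjusted p with a fold of 1.5 (7.96%), and ranged from 0 to 3 with 1 ovary left out (0.0051% to 2.87%). At an unadjusted p with a fold of 1.5, leaving out 1 ovary gave 5 to 8 genes in Aged vs Control (16.2% to 22.1% of all genes). It gave 2 to 7 in Aged+CF vs Aged (5.95% to 12.2%) and 0 to 2 in Aged+CF vs Control (4.38% to 7.95%). In Aged+CF vs Control the count over all ovaries was 1 (7.69%), and it was 0 without Control 32, Control 34 or Aged+CF 32, and 2 without Aged+CF 34. The replicate numbers gave no clear pairing of the ovaries. The deviations of same-numbered Control and Aged ovaries correlated at 0.138, -0.185 and 0.0696. The values were -0.0874 for Control 32 and Aged+CF 32, 0.153 for Control 34 and Aged+CF 34, and -0.0613 for Aged 34 and Aged+CF 34. Ovaries of different numbers gave -0.185 to 0.193. With a replicate block, 0 genes were called in Aged vs Control (0.422% of all genes). In Aged+CF vs Control 0 reached an unadjusted p with a fold of 1.5 (6.92% of all genes). The signs turned with the block for Cct6a (-0.019), Dnajc28 (0.18) and Hscb (0.11) in Aged+CF vs Aged and for Bag1 (0.055), Dnaja4 (0.44), Hsf1 (-0.060), Hspa8 (0.00475) and Hspb8 (-0.091) in Aged+CF vs Control. With limma and voom, Dnajc28 (0.0093) and Dnajc9 (0.031) turned in Aged+CF vs Aged. Hspa8 turned in Aged+CF vs Control with DESeq2 size factors (0.00361), the Wald test (0.00366) and the compared groups alone (0.00475). The cause of these turns was not tested. With 1 ovary left out, log2 fold changes crossed 0 in Aged vs Control for Hsp90ab1 (-0.011 to 0.14), Hspa2 (-0.029 to 0.33), Hspe1 (-0.032 to 0.80) and Tcp1 (-0.10 to 0.078), in Aged+CF vs Aged for Cct3 (-0.19 to 0.0091), Cct6a (-0.074 to 0.20), Dnajb13 (-0.32 to 0.34), Dnajc2 (-0.12 to 0.0098), Dnajc28 (-0.12 to 0.057), Dnajc9 (-0.19 to 0.23), Hscb (-0.19 to 0.10), Hspa1a (-0.59 to 0.050), Hspa1b (-0.55 to 0.13), Hspa2 (-0.26 to 0.097) and Hspa4 (-0.15 to 0.011) and in Aged+CF vs Control for Bag1 (-0.081 to 0.016), Dnaja1 (-0.099 to 0.049), Dnaja4 (-0.32 to 0.0098), Dnajc3 (-0.011 to 0.088), Hsp90ab1 (-0.15 to 0.0087), Hspa1a (-0.19 to 0.45), Hspa1b (-0.14 to 0.46), Hspa2 (-0.032 to 0.17), Hspa8 (-0.12 to 0.11), Hspa9 (-0.0046 to 0.12) and Hspb1 (-0.18 to 0.023). Of 126 single-gene results, 122 kept direction and side of the threshold without the count filter, 122 with DESeq2 size factors, 120 with the compared groups alone, 112 with the Wald test, 123 with voom and 110 with the block. Depth limits Hspb9, Dnajb7, Dnajb8 and Dnajc22, which had too few reads to be tested.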
